A study of Homo sapiens with 24 samples.

Results

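The endothelin system was followed at the transcript level in HT29, HCT116 and SW480 cells, which are established human colorectal cancer (CRC) cell lines, with or without inactivation of CTNNB1, the gene for β-CATENIN. By the study's text HCT116 carries an activating CTNNB1 mutation, whereas APC, which restrains β-CATENIN, is inactivated by mutation in HT29 and SW480, so that WT here means unedited at CTNNB1 in this study. It was taken as 7 of the 58051 gene identifiers measured, namely the ligand genes EDN1, EDN2 and EDN3, the receptor genes EDNRA and EDNRB, and the converting enzyme genes ECE1 and ECE2. Each line was represented by 2 WT clones and by 2 KO clones in which a CTNNB1 exon had been deleted from both alleles with CRISPR/Cas9. The WT clones had been taken through the same editing and cloning steps without losing CTNNB1, so that both groups consist of single-cell clones. No group received a further treatment. Each clone had libraries labeled A and B, taken here as the 2 independent rounds of RNA-seq that the study's text describes. There were 24 libraries, 4 for each line and genotype. Clones WT 11, WT 40, KO 28 and KO 38 came from HT29. HCT116 gave WT 4, WT 6, KO 44 and KO 47, and SW480 gave WT 4, WT 5, KO 17 and KO 21. Clone and round together name a library, for example KO 28A. KO clones of SW480 became senescent when kept in culture for long, according to the study's text, and this limits them as a model of loss of β-CATENIN alone. The set was chosen by the EDN3 values of SW480, where the KO clones had all but lost this transcript, so these values are a description and carry no test.

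Endothelins are short vasoactive peptides that are cut from longer precursors. Furin-like convertases release an inactive intermediate, and the endothelin-converting enzymes, membrane-bound zinc metallopeptidases, produce the active peptide. Of the G protein-coupled receptors, EDNRA prefers the peptides of EDN1 and EDN2, whereas EDNRB binds all endothelins alike. EDN3 and EDNRB are best known in the gut for the colonization of the bowel by enteric neuron precursors, and their loss causes Hirschsprung disease. EDN1 has been described as a target gene of β-CATENIN and TCF/LEF factors in colon cancer cells.

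Because EDN1 and EDN2 both fell in SW480 KO libraries, as detailed below for each gene, stretches of 250 bases before annotated transcript starts of these ligand genes are shown. The sequences are from RefSeq (GRCh38.p14), were found at 1 place each in GRCh37, and are given 5′ to 3′ on the strand of the gene with GRCh37 coordinates. The motifs searched were the TCF/LEF core letters CTTTGAA as the first motif, CTTTGAT as the second, CTTTGTA as a further one and CTTTGTT as the last, on both strands. They have their first letters in common, and a match is set in capitals.
EDN1, most upstream transcript start, chr6:12288002-12288251, plus strand: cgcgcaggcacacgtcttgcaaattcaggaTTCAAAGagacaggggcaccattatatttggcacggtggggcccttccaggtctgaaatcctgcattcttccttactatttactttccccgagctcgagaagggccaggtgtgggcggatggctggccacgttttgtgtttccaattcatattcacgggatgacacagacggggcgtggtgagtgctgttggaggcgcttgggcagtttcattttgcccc
EDN1, most downstream transcript start, chr6:12290344-12290593, plus strand: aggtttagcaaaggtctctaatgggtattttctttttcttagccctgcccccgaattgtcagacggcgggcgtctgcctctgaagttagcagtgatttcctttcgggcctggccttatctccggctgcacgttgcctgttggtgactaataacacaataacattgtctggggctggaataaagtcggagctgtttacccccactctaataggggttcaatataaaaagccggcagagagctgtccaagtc
EDN2, chr1:41950355-41950604, minus strand: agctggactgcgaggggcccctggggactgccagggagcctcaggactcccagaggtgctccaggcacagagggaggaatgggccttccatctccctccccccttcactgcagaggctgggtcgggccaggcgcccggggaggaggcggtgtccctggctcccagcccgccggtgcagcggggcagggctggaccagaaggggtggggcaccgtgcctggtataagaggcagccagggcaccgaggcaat
The capitals in the first EDN1 sequence are CTTTGAA read on the opposite strand, beginning at position −220 relative to that start. That start, chr6:12288252, lies upstream of the EDN1 coordinates used for the counts per kilobase, chr6:12290594-12297427. Use of that start in these cells was not tested. None of the other windows of the genes with an entry in the table, which were EDN1, EDN2, EDNRA, EDNRB and ECE1, held any of the 4 motifs, so that 1 of 11 windows had a match. Of all 35116 windows of this kind, 4199 or 12.0% had one. The matches describe letters in these windows and no binding was measured.

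Values are normalized counts, that is reads on a gene divided by the size factor of the library, and are given as mean ± SD over 4 libraries from 2 clones. The libraries held 22297049 to 29068378 reads assigned to genes, and a value was taken as at the floor when it rested on 3 reads or fewer. CTNNB1 was at 5883 to 50939 in the 12 WT libraries and at 187 to 1312 in the 12 KO libraries, and the KO means were 4.98%, 1.83% and 2.18% of the WT means in HT29, HCT116 and SW480. HCT116 KO 47A stood apart, since 35449 genes had at least 1 read in it compared with at most 24944 in any other library. The rounds of HT29 KO 38 differed more than those of other clones, with an SD between rounds of 0.926 on the log2 scale compared with 0.359 to 0.527. Of 10 epithelial markers, 7 or 8 were at 10 or more in every library of each group, with a summed value from 132010 to 743767. The glial and neural crest markers SOX10 and S100B were at the floor in every library. Genotypes were compared within a line with limma and Benjamini-Hochberg adjustment over all tested genes. This test counted the 4 libraries of a group as independent, although they came from 2 clones. A gene rose or fell if its adjusted p was under 0.05.

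**Figure D1:**
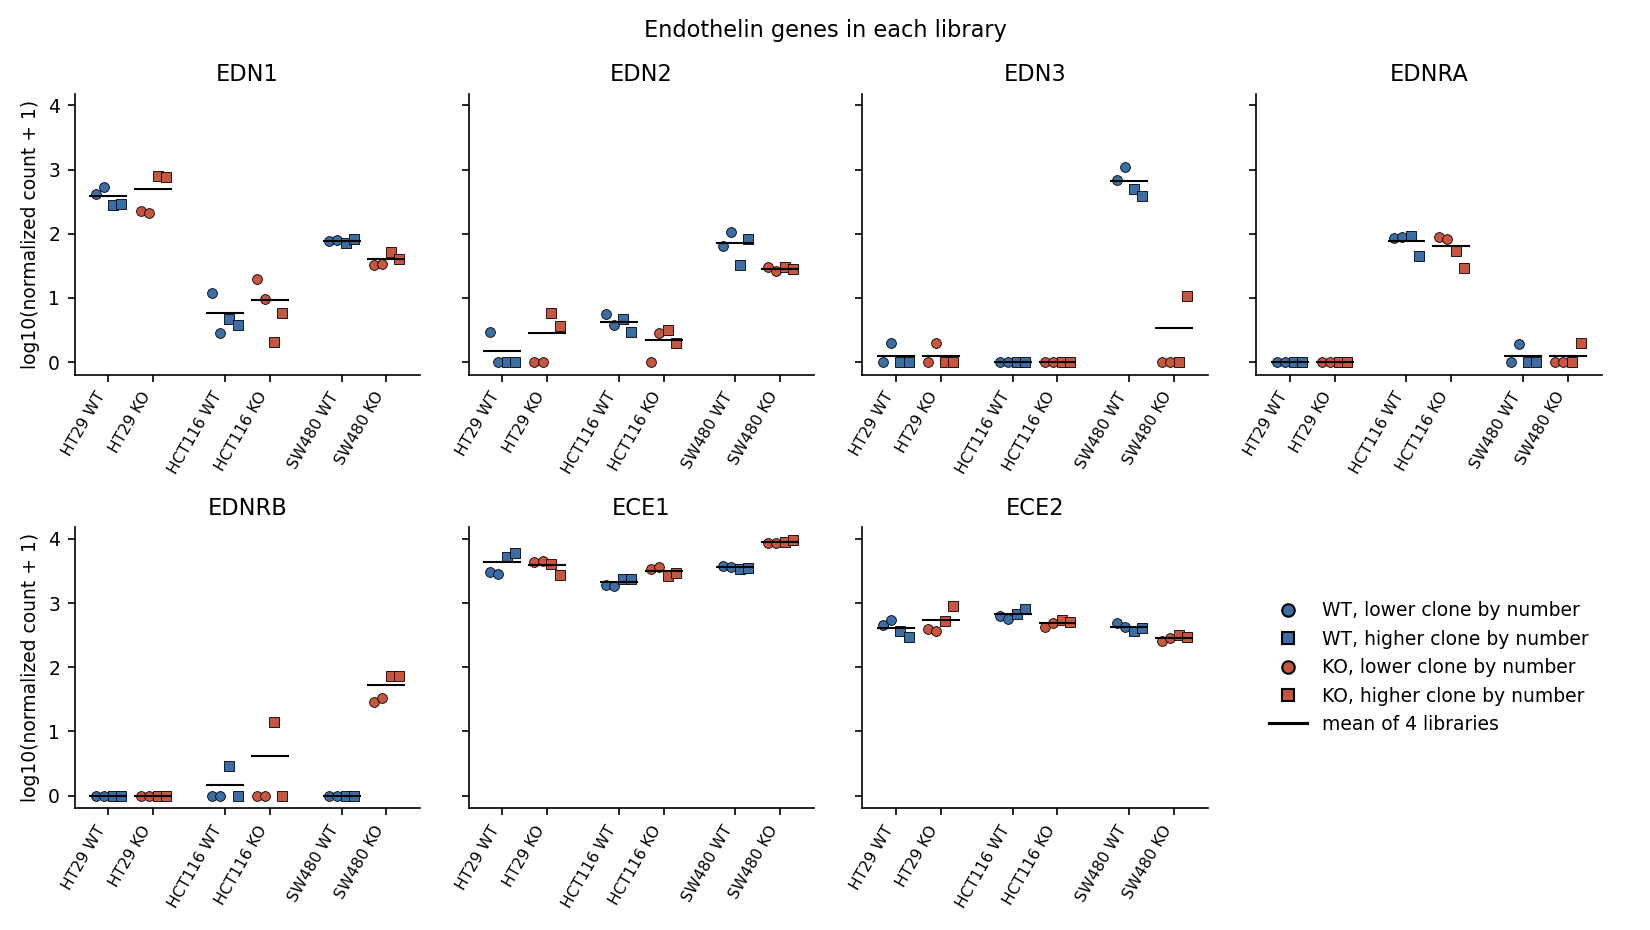
The log10 of the normalized count plus 1 is plotted for each of the 7 genes in 24 libraries, with WT in blue, KO in red, the clones of a group as circles and squares, and the mean of 4 libraries as a line. EDN3 is high in SW480 WT alone, EDNRA is above the floor in HCT116 alone, and EDNRB is at 0 in each SW480 WT library and at 28.2 to 72.0 in the KO libraries.

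The ligands differed in which line held them. EDN1 was the ligand transcript of HT29, where it made up 99.3% to 100% of the summed ligand transcripts per kilobase, whereas HCT116 had very little of any ligand and SW480 WT cells had all of EDN1, EDN2 and EDN3. In SW480 the KO libraries had less of each, with EDN1 at 50.3%, EDN2 at 39.0% and EDN3 at 0.361% of the WT mean.

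EDN3 (ENSG00000124205, GRCh37 chr20:57875498-57901047, plus strand) encodes the ligand that is needed for enteric neuron precursors. In SW480 WT it was at 686.3 and 1083 in WT 4A and 4B and at 495.2 and 391.5 in WT 5A and 5B. In SW480 KO it was at 0 in KO 17A, 17B and 21A and at 9.60 in KO 21B. The lowest WT library was thus far above the highest KO library, and the 10 reads of KO 21B were all the EDN3 reads of the SW480 KO group, compared with 2771 in the WT group. The means were 664.1 ± 305.0 and 2.40 ± 4.80 (SD, n = 4 each), with a log2 fold change of −8.42 on the log2(value + 1) scale, which depends on the pseudocount. EDN3 had no read in any HCT116 library and at most 1 read in any HT29 library. Since the gene was picked for this contrast, no test is given. In SW480, 22.1% of all tested genes fell in KO libraries.

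EDN1 (ENSG00000078401, chr6:12290594-12297427, plus strand) encodes endothelin 1, the most widely made of the peptides. In SW480 WT libraries it was at 74.8, 79.9, 71.4 and 83.2 in WT 4A, 4B, 5A and 5B. In the KO libraries it was at 32.0, 33.0, 51.4 and 39.4 in KO 17A, 17B, 21A and 21B. Every KO library was below every WT library. EDN1 fell by 0.99 on the log2 scale (standard error 0.19, adjusted p = 0.0016). On clone sums, in which rounds A and B are added up and 2 clones stand against 2, the adjusted p was 0.0503.

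The same gene went in opposite directions in the HT29 KO clones. EDN1 was at 421.5 and 525.1 in WT 11 and at 281.6 and 293.1 in WT 40, for rounds A and B. It was at 228.3 and 213.3 in KO 28 and at 791.1 and 762.3 in KO 38. Both libraries of KO 28 were thus below, and both libraries of KO 38 above, every WT library. Between the KO clones EDN1 was higher in KO 38 by 1.81 on the log2 scale (standard error 0.20, adjusted p = 0.00085), a contrast in which 16.0% of all tested genes passed. Between the WT clones the difference was −0.71 for WT 40 against WT 11 (adjusted p = 0.067). The comparison of genotypes gave 0.17 with a 95% interval from −0.92 to 1.27 (adjusted p = 0.88), and it was 1.08 without KO 28 and −0.73 without KO 38. In HCT116 EDN1 was at 1.86 to 11.0 in WT and at 1.07 to 18.7 in KO libraries, and it was not tested there because too few libraries reached 10.

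EDN2 (ENSG00000127129, chr1:41944446-41950354, minus strand) encodes endothelin 2, a ligand made by intestinal epithelium. SW480 WT libraries had 63.7, 104.8, 31.9 and 83.2 in WT 4A, 4B, 5A and 5B. SW480 KO libraries had 29.2, 25.7, 28.9 and 26.9 in KO 17A, 17B, 21A and 21B. The KO libraries lay close together, all below WT 5A, the lowest WT library. EDN2 fell by 1.20 on the log2 scale (standard error 0.32, adjusted p = 0.011). The adjusted p was 0.074 with the clone as a random effect and 0.106 without WT 4, and 0.029 on clone sums. In HT29 and HCT116 EDN2 was at most at 4.74 in any library and was not tested.

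Per kilobase of exon, the summed ligand transcripts of SW480 were 282.7 ± 105.8 in WT and 36.6 ± 5.01 in KO libraries (SD, n = 4 each). EDN3 made up 69.9% of that sum in WT libraries and EDN1 and EDN2 made up 14.7% and 15.4%, whereas EDN1 and EDN2 made up 51.8% and 46.3% in KO libraries. This sum contains the EDN3 values for which the genes were chosen, so it carries no test. In HT29 the sum was 187.3 ± 57.0 in WT and 246.3 ± 159.1 in KO libraries, and KO 38 alone reached 376.2 and 391.6. The HCT116 sum was 4.35 ± 2.65 in WT and 4.81 ± 3.26 in KO libraries.

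**Figure D2:**
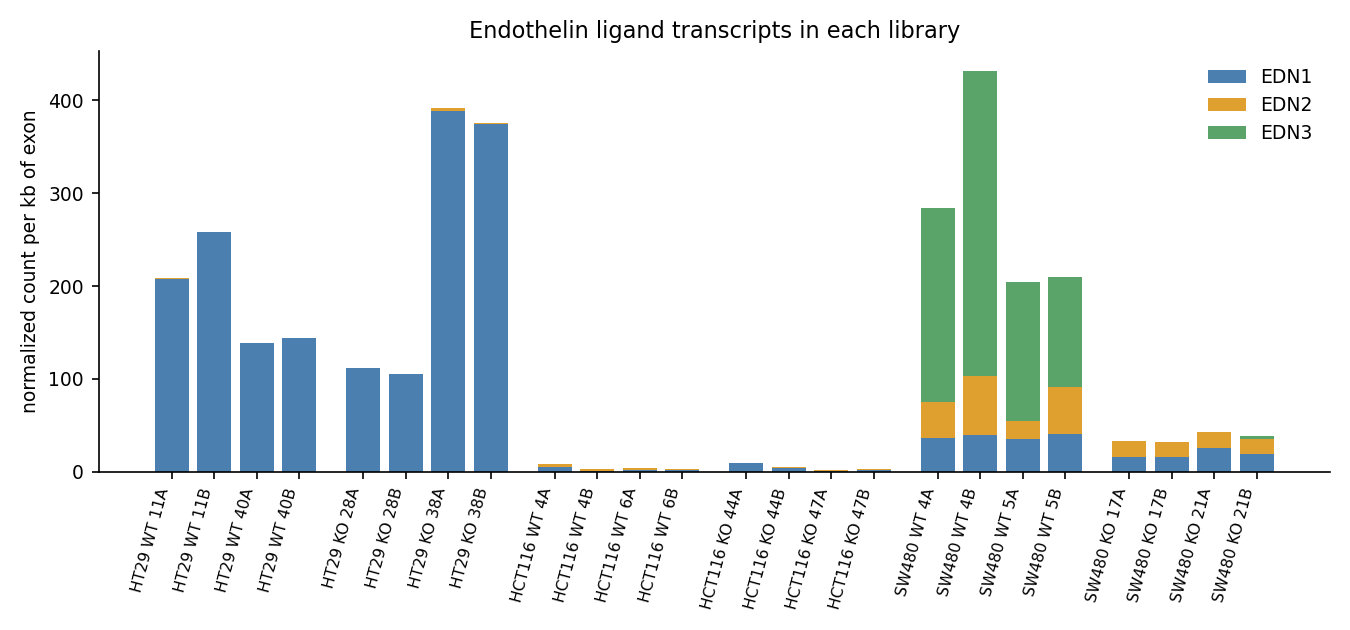
Bars give the normalized counts per kilobase of exon of EDN1, EDN2 and EDN3, stacked, in each of the 24 libraries. EDN1 fills the HT29 bars, the HCT116 bars stay below 10, and SW480 falls from 204.8 to 431.9 in WT to 31.8 to 42.8 in KO libraries.

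The receptors were low or undetected in most groups. EDNRA was present in HCT116 whatever the CTNNB1 genotype, and EDNRB was found in SW480 KO libraries and not in SW480 WT libraries. HT29 had no read on either receptor in any of its 8 libraries.

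EDNRB (ENSG00000136160, chr13:78469616-78549664, minus strand) encodes the receptor that EDN3 acts on in the developing bowel. In SW480 KO it was at 28.2 and 32.1 in KO 17A and 17B and at 71.9 and 72.0 in KO 21A and 21B. In the 4 SW480 WT libraries it was at 0. The mean of the KO libraries, 51.1 ± 24.2 (SD, n = 4), was at least 17.6-fold higher than the floor of 3 reads per library. EDNRB passed the filter on low values through its KO libraries alone and therefore had to differ, so no p is given. Between the KO clones it was higher in KO 21 by 1.23 on the log2 scale (standard error 0.53, adjusted p = 0.099), and edgeR gave 1.22 with an adjusted p of 0.0075.

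The same SW480 KO libraries had reads on a long noncoding RNA, ENSG00000233379, which lies on the same strand and shares 124 exonic bases with EDNRB. It was at 20.7, 24.8, 78.4 and 55.7 in KO 17A, 17B, 21A and 21B and at 0 in the 4 WT libraries. Both transcripts were thus higher in KO 21 than in KO 17. OBI1-AS1, an antisense RNA that shares 80 exonic bases with EDNRB, was at most at 1.93 in any SW480 library. Reads in the bases that EDNRB and ENSG00000233379 share on the same strand cannot be told apart. The same holds for the bases shared with OBI1-AS1, because the libraries do not keep the strand. In HCT116 EDNRB was above the floor only in KO 47A, the library that stood apart, with 12.8, and OBI1-AS1 was also at 12.8 there and at most at 0.942 in the other HCT116 libraries.

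**Figure D3:**
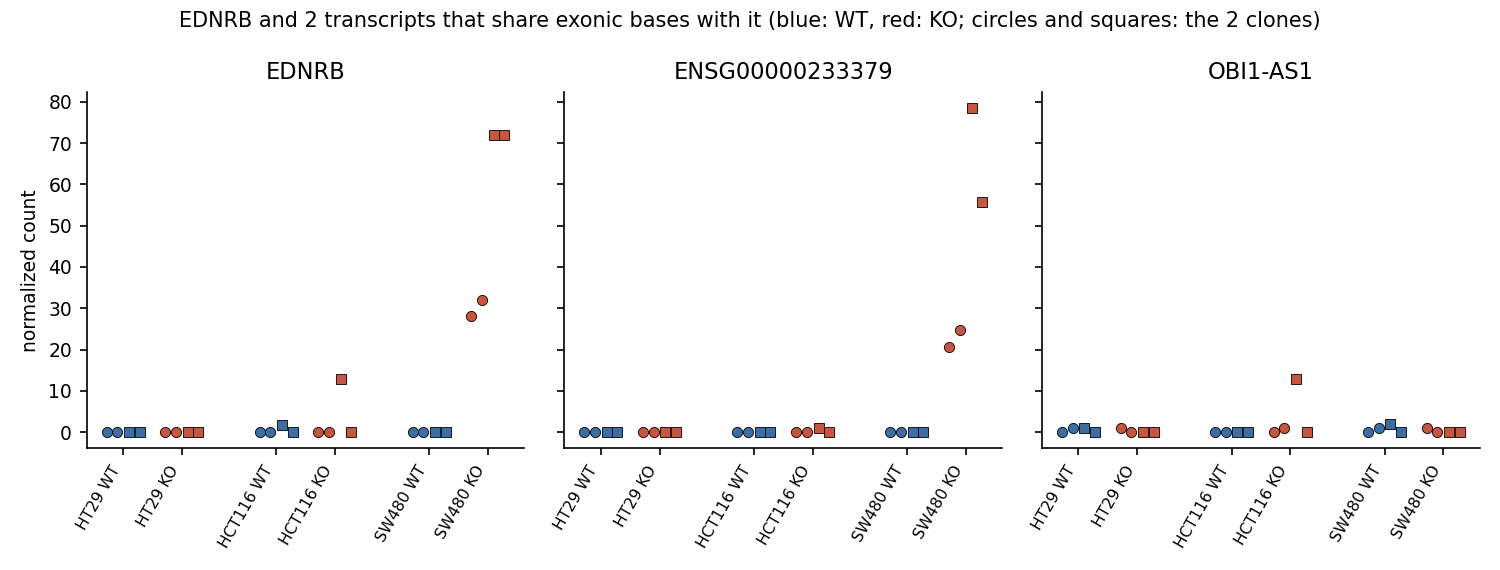
Normalized counts of EDNRB, of ENSG00000233379 and of OBI1-AS1 are plotted for the 24 libraries on 1 linear axis, WT in blue and KO in red. EDNRB and ENSG00000233379 are above 20 in the 4 SW480 KO libraries alone, and the lone point of OBI1-AS1 at 12.8 is HCT116 KO 47A.

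The endothelial marker VWF, the gene for von Willebrand factor, also differed between the SW480 genotypes, at 114 to 234 in KO and 9.65 to 27.4 in WT libraries. Of the 6 endothelial markers matched, VWF was the one at 10 or more in every SW480 KO library, and CDH5, KDR, TEK and CLDN5 were at the floor there. The summed endothelial markers ran from 137 to 236 in SW480 KO and from 17.4 to 38.4 in SW480 WT. Of 7 immune markers listed, 6 are reported here, and their sum ran from 164 to 239 in SW480 KO and from 36.8 to 51.5 in SW480 WT. CD14 and ITGAM, which mark myeloid cells, were at 10 or more in every SW480 KO library, and PTPRC, CD3E, MS4A1 and CD68 were at the floor there. CD14 was also at 10 or more in every SW480 WT library and in every HT29 library. ITGAM was at the floor in every SW480 WT library, and at 10 or more in every HT29 KO and HCT116 WT library. The part of these markers in the SW480 values of the 7 endothelin genes was not tested.

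EDNRA (ENSG00000151617, chr4:148402069-148466106, plus strand) encodes the receptor through which endothelin 1 contracts smooth muscle. In HCT116 WT it was at 83.5, 89.1, 91.5 and 43.8 in WT 4A, 4B, 6A and 6B. In HCT116 KO it was at 86.5, 82.0, 52.5 and 28.5 in KO 44A, 44B, 47A and 47B. The genotypes overlapped, and the lowest library of each was round B of 1 clone. The log2 fold change was −0.37 with a 95% interval from −1.17 to 0.44 (adjusted p = 0.55). KO 47 was lower than KO 44 by −1.10 on the log2 scale (adjusted p = 0.12). The adjusted p was 0.014 with the round as a replicate block, the 1 of 4 alternatives that passed, and 0.138 in edgeR. Libraries of a round deviated together in HCT116 across all genes, which was not examined for EDNRA alone. In SW480 and HT29 EDNRA had at most 1 read in any library. RET, a gene of the glial and neural crest list, was likewise at 41.9 to 107 in HCT116 and at most at 3.03 in the other lines.

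The converting enzymes were expressed in every line and library. In SW480 KO cells ECE1 was higher and ECE2 was lower than in WT cells, and in HCT116 the values lay on the same sides. In HT29 the genotypes overlapped for both enzymes.

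ECE1 (ENSG00000117298, chr1:21543740-21672065, minus strand) encodes the main enzyme that activates endothelins. In SW480 it was at 3775, 3671, 3454 and 3526 in WT 4A, 4B, 5A and 5B. It was at 8530, 8552, 8956 and 9675 in KO 17A, 17B, 21A and 21B. The KO libraries formed a narrow group at 2.48 times the WT mean, and ECE1 rose by 1.31 on the log2 scale (standard error 0.065, adjusted p = 1.2e-07). On clone sums the adjusted p was 0.0014.

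In HCT116 ECE1 was at 1933, 1848, 2368 and 2340 in WT 4A, 4B, 6A and 6B and at 3406, 3684, 2687 and 2991 in KO 44A, 44B, 47A and 47B. The groups did not overlap, and ECE1 rose by 0.59 (standard error 0.13, adjusted p = 0.012). The adjusted p was 0.105 without KO 44, 0.090 without WT 4 and 0.155 on clone sums. In HT29 ECE1 was at 3079 and 2808 in WT 11, at 5297 and 6127 in WT 40, at 4365 and 4516 in KO 28 and at 4025 and 2756 in KO 38. The KO libraries lay within the range of the WT libraries except KO 38B, which was just below it, and the log2 fold change was −0.09 with a 95% interval from −0.74 to 0.56 (adjusted p = 0.90). WT 40 was higher than WT 11 by 0.95 (standard error 0.21, adjusted p = 0.031), and 9.02% of all tested genes passed in that contrast.

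ECE2 (ENSG00000145194, chr3:183993799-184010819, plus strand) encodes a related enzyme of the secretory pathway. In SW480 it was at 489.2, 419.9, 372.6 and 407.1 in WT 4A, 4B, 5A and 5B and at 259.6, 281.7, 312.8 and 292.8 in KO 17A, 17B, 21A and 21B. It fell by 0.55 on the log2 scale with no overlap of the groups (standard error 0.11, adjusted p = 0.0019). On clone sums the adjusted p was 0.066. ECE2 shares 2965 exonic bases with the readthrough gene EEF1AKMT4-ECE2, for which no values were listed, so that reads of both could not be told apart.

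HCT116 had ECE2 at 626.6, 567.1, 665.3 and 800.6 in WT 4A, 4B, 6A and 6B and at 424.5, 485.1, 536.3 and 511.0 in KO 44A, 44B, 47A and 47B. The groups did not overlap, but ECE2 did not pass the test, with a log2 fold change of −0.44 and a 95% interval from −0.74 to −0.14 (adjusted p = 0.056). DESeq2 gave an adjusted p of 0.020 and edgeR of 0.049. In HT29 ECE2 was at 295.6 to 535.2 in WT and at 362.0 to 908.8 in KO libraries. The groups overlapped, and the log2 fold change was 0.34 with a 95% interval from −0.39 to 1.06 (adjusted p = 0.62).

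Per kilobase of exon, ECE1 transcripts outnumbered ECE2 transcripts in all libraries. In SW480 the ratio of ECE1 to ECE2 per kilobase was 5.56 ± 0.418 in WT and 20.2 ± 1.37 in KO libraries (SD, n = 4 each). In HCT116 it was 2.07 ± 0.176 and 4.28 ± 0.923. In HT29 it was 7.62 ± 4.63 and 5.56 ± 2.73. The ranges of WT and KO libraries were separate in SW480 and HCT116 and overlapped in HT29.

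**Figure D4:**
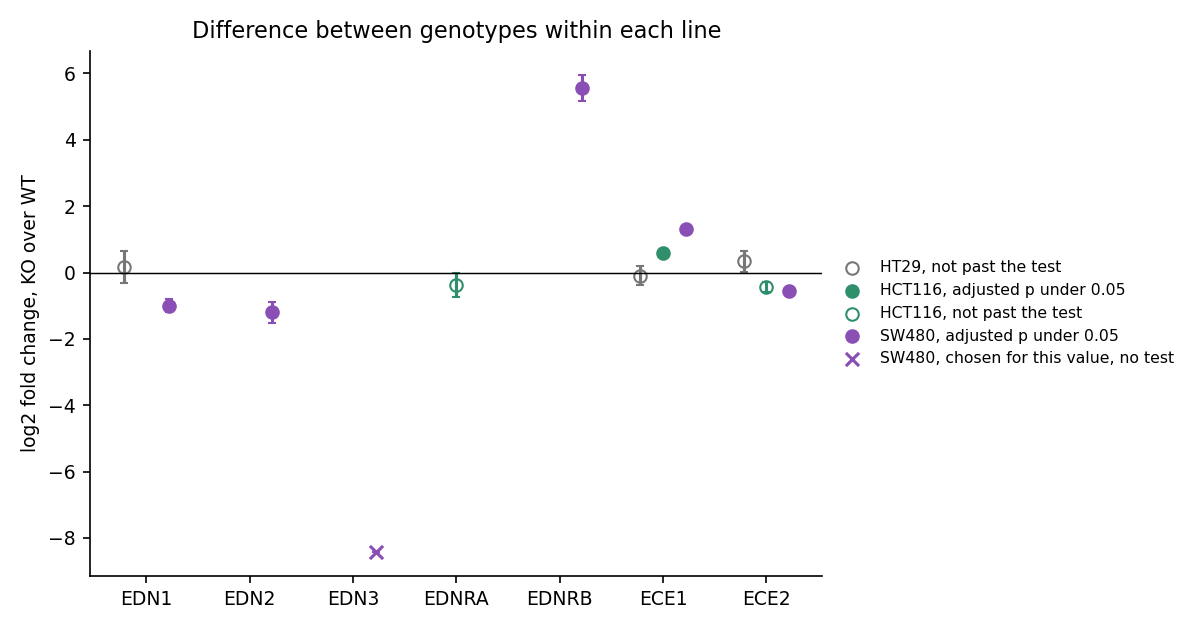
The log2 fold change of KO over WT is plotted with its standard error for each gene tested in each line, with filled points at an adjusted p under 0.05 and a cross for EDN3, which has no test. EDNRB had to differ once it passed the filter. SW480 has the points farthest from 0, HCT116 has ECE1 at 0.59 and the HT29 points sit between −0.09 and 0.34.

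Counted over the 7 genes, SW480 had EDN1, EDN2 and ECE2 lower, ECE1 higher, EDNRB present in KO libraries alone, EDN3 without a test and EDNRA not tested. In that line 48.1% of all tested genes passed, 26.1% higher and 22.1% lower, so that a passing gene was common. HCT116 had ECE1 higher among 3 genes tested, with 14.0% of all tested genes passing, 8.05% higher and 5.93% lower. HT29 had 0 of 3 genes passing in limma, 0 at an unadjusted p under 0.05 and 0 in edgeR and DESeq2. Of all 14921 genes tested there in limma, 2.56% passed, 2.08% higher and 0.476% lower, and 2417 had an unadjusted p under 0.05. Genotypes did not overlap for 46.2% of tested genes in SW480, 20.5% in HCT116 and 13.0% in HT29.

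Whether the change with genotype differed between lines was tested over the 24 libraries. The ECE1 change was larger in SW480 than in HT29 by 1.40 on the log2 scale (standard error 0.28, adjusted p = 0.00088), a contrast that 15.8% of all tested genes passed, and the adjusted p was 0.105 on clone sums. Against HCT116 the ECE1 difference was 0.72 with a 95% interval from 0.15 to 1.29 (adjusted p = 0.094), where 13.2% of genes passed. EDNRB reached 10 in the 4 SW480 KO libraries and in HCT116 KO 47A alone and entered this fit through them, so no p is given for it. For ECE2 the value was −0.89 between SW480 and HT29 (adjusted p = 0.053) and for EDN2 −1.91 (adjusted p = 0.092), and neither passed. ECE2 did pass in edgeR (adjusted p = 0.049) and at a pseudocount of 5 (0.048), and EDN2 at a pseudocount of 5 (0.012). Without HT29 KO 28A or KO 28B both passed, as did ECE2 without WT 11B and EDN2 without WT 11A. EDN2 was at most at 4.74 in any HT29 library, at or near the floor. Its values therefore cannot decide whether the EDN2 change differed between SW480 and HT29, with or without a pass. For EDN1 the difference between SW480 and HT29 was −1.17 with a 95% interval from −2.75 to 0.42 (adjusted p = 0.34). Between HCT116 and HT29 the ECE1 difference was 0.68 (adjusted p = 0.15, and 0.043 without HT29 WT 11B) and the ECE2 difference −0.77 (adjusted p = 0.14), where 7.25% of all genes passed.

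In the WT clones, the line with the highest level was not the same for all genes. Across the whole table, 58.4% of all tested genes differed between HCT116 and HT29, 60.3% between SW480 and HT29 and 60.5% between SW480 and HCT116. EDN1 ran from HT29 with 380.3 ± 115.5 over SW480 with 77.3 ± 5.24 to HCT116 with 4.85 ± 4.17, and neighbours differed in limma (adjusted p = 0.0011 and 1.2e-06). EDN2 was highest in SW480 with 70.9 ± 31.0, and it was at 3.24 ± 1.16 in HCT116 and 0.480 ± 0.960 in HT29, at or near the floor. EDNRA was highest in HCT116 with 77.0 ± 22.4 and at or near 0 in the others. For ECE1, HT29 with 4328 ± 1638 and SW480 with 3607 ± 144 did not differ beyond their spread (adjusted p = 0.44), and HCT116 with 2122 ± 270 was lower than either (adjusted p = 0.00021 and 0.0016). For ECE2, HCT116 was highest with 664.9 ± 99.1 (adjusted p = 0.0077 against HT29 and 0.013 against SW480, and 0.084 and 0.091 on clone sums), and SW480 with 422.2 ± 48.9 and HT29 with 412.7 ± 103.0 did not differ beyond their spread (adjusted p = 0.83). Among WT libraries EDN3 was over the floor in SW480 alone, and EDNRB was over it in none.

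Clones of 1 genotype were compared over their rounds in 24 tests, of which the EDN1 difference between HT29 KO clones and the ECE1 difference between HT29 WT clones passed. The share of all tested genes that passed was 2.61% for the WT pair and 7.16% for the KO pair in HCT116, and 8.88% and 28.0% for the respective pairs in SW480. With the round as a replicate block, ECE1 of HCT116 also passed, lower in KO 47 than in KO 44 by −0.32 on the log2 scale (adjusted p = 0.027, and 0.12 without the block) and higher in WT 6 than in WT 4 by 0.32 (adjusted p = 0.036, and 0.18 without the block). A clone of each HCT116 genotype thus lay nearer to the other genotype in ECE1.

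The 59 other genes of the pathway comprised peptidases related to the converting enzymes, prohormone convertases, G proteins and their effectors, receptor regulators and related receptors. In SW480, 23 of 46 tested genes rose and 11 fell, or 73.9%, compared with 48.1% of all tested genes. In HCT116, 12 of 46 rose and 7 fell, or 41.3%, compared with 14.0%. On clone sums 18 genes of the list passed in SW480 and 5 in HCT116. The share of all tested genes at that setting is not given, so these counts cannot be set against it. The counts of the list, and those of its groups below, include PCSK1, PHEX and ECEL1 in SW480 and RGS4 and GNA15 in HCT116. These had to differ once they passed the filter. In HT29, 1 of 44 rose and 0 fell, or 2.27%, compared with 2.56%. Of the 44, 10 had an unadjusted p under 0.05 in HT29, as did 2417 of all 14921 tested genes. There edgeR called 0 and DESeq2 called 6 of the 44, and the share of all tested genes in either is not given. The median log2 fold change of the list was 0.26 in SW480, 0.06 in HCT116 and 0.05 in HT29, and over all tested genes it was −0.0042, −0.0141 and 0.0314.

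Among the prohormone convertases listed, PCSK1 is the convertase of neuroendocrine secretory granules. Cleavage of endothelin precursors by any of them was not measured. In SW480 PCSK1 was at 0 to 6.85 in WT and at 435.8 to 571.5 in KO libraries (log2 fold change 7.36). PCSK6 fell from 381.3 to 556.9 in WT to 24.5 to 67.2 in KO libraries (−3.51, adjusted p = 4.5e-06), and PCSK5 fell from 767.1 to 851.8 to 172.5 to 276.5 (−1.88, adjusted p = 2.2e-06). Both are constitutive convertases of the secretory pathway. Of the 6 convertases tested in SW480, 3 rose and 2 fell, where 48.1% of all tested genes passed. FURIN rose there by 0.36 (adjusted p = 0.0029). In HCT116, 2 of 5 convertases rose, where 14.0% of all tested genes passed. In HT29 0 of 4 passed in limma, where 2.56% of all tested genes passed. There 1 of the 4 had an unadjusted p under 0.05, as did 2417 of all 14921 tested genes.

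Of the 3 peptidases tested in SW480, 2 rose and 1 fell, where 48.1% of all tested genes passed. PHEX, an endopeptidase of bone mineral metabolism, was at 1.84 to 4.83 in WT and at 45.9 to 51.8 in KO libraries (log2 fold change 3.86). ECEL1, an endothelin-converting enzyme-like protease of neurons, was at 40.1 to 70.8 in WT and at 1.87 to 5.64 in KO libraries (−3.88). In HCT116, 1 of 2 peptidases rose, where 14.0% of all tested genes passed. In HT29 0 of 3 passed, where 2.56% of all tested genes passed. There 1 of the 3 had an unadjusted p under 0.05, as did 2417 of all 14921 tested genes. PCSK1, PHEX and ECEL1 in SW480, like RGS4 and GNA15 in HCT116, reached 10 in libraries of 1 genotype alone. They therefore had to differ once they passed the filter, so no p is given for them.

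Among the G proteins and effectors, 11 of 25 rose and 3 fell in SW480, or 56.0%, near the 48.1% of all tested genes. In HCT116, 6 of 26 rose and 5 fell, or 42.3%, compared with 14.0%. In HT29 0 of 26 passed, compared with 2.56%. There 3 had an unadjusted p under 0.05, as did 2417 of all 14921 tested genes. GNAI1, an inhibitory G protein α subunit, fell in SW480 and HCT116. In SW480 it was at 558.8 to 3053 in WT and 187.7 to 270.0 in KO libraries (log2 fold change −2.68, adjusted p = 0.0024), and in HCT116 at 5762 to 10262 and 1261 to 1836 (−2.25, adjusted p = 2.4e-05). GNA15, an α subunit of the Gq family, was at 10.2 to 140 in WT and 0 to 3.21 in KO libraries of HCT116 (−5.07). The call of GNA15 was lost on clone sums. Its KO libraries were all at the floor, so that the size of this change depends on the pseudocount.

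Phospholipase C genes of HCT116 went both ways. PLCB2 fell by 1.29 on the log2 scale (adjusted p = 0.029) and PLCB4 rose by 1.17 (adjusted p = 0.015). The calcium channel gene ITPR1 fell by 1.11 (adjusted p = 0.020) and the protein kinase C gene PRKCE rose by 1.41 (adjusted p = 7.5e-05). The calls of PLCB2 and ITPR1 were lost on clone sums (adjusted p = 0.113 and 0.178).

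All 11 receptor regulators tested in SW480 passed, with 6 higher and 5 lower, where 48.1% of all tested genes passed. In HCT116, 3 of 12 were higher and 2 lower, or 41.7%, compared with 14.0%. In HT29 0 of 10 passed, compared with 2.56%. There 4 had an unadjusted p under 0.05, as did 2417 of all 14921 tested genes. In HCT116 the receptor kinase gene GRK5 rose by 1.39 (adjusted p = 0.00023). RGS4, which shortens Gq and Gi signals, was at 0 to 6.42 in WT and at 19.7 to 32.0 in KO libraries of HCT116 (3.12). In SW480 RGS2, which acts on Gq, rose from 2.02 to 15.7 to 20.5 to 39.5 (1.94, adjusted p = 0.013, and 0.101 on clone sums). Of the related receptors, GRPR, the gastrin-releasing peptide receptor, rose in SW480 from 6.76 to 14.7 to 23.3 to 42.2 (1.76, adjusted p = 0.00080). GPR37, an orphan receptor of the same family, rose in HT29 from 54.3 to 140 in WT to 237 to 372 in KO libraries (1.82, adjusted p = 0.036), and its adjusted p was 0.052 in edgeR, 0.071 with the round as a replicate block and 0.708 on clone sums. In HCT116 GPR37 was the 1 related receptor tested, with a log2 fold change of 0.37 (adjusted p = 0.57).

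**Figure D5:**
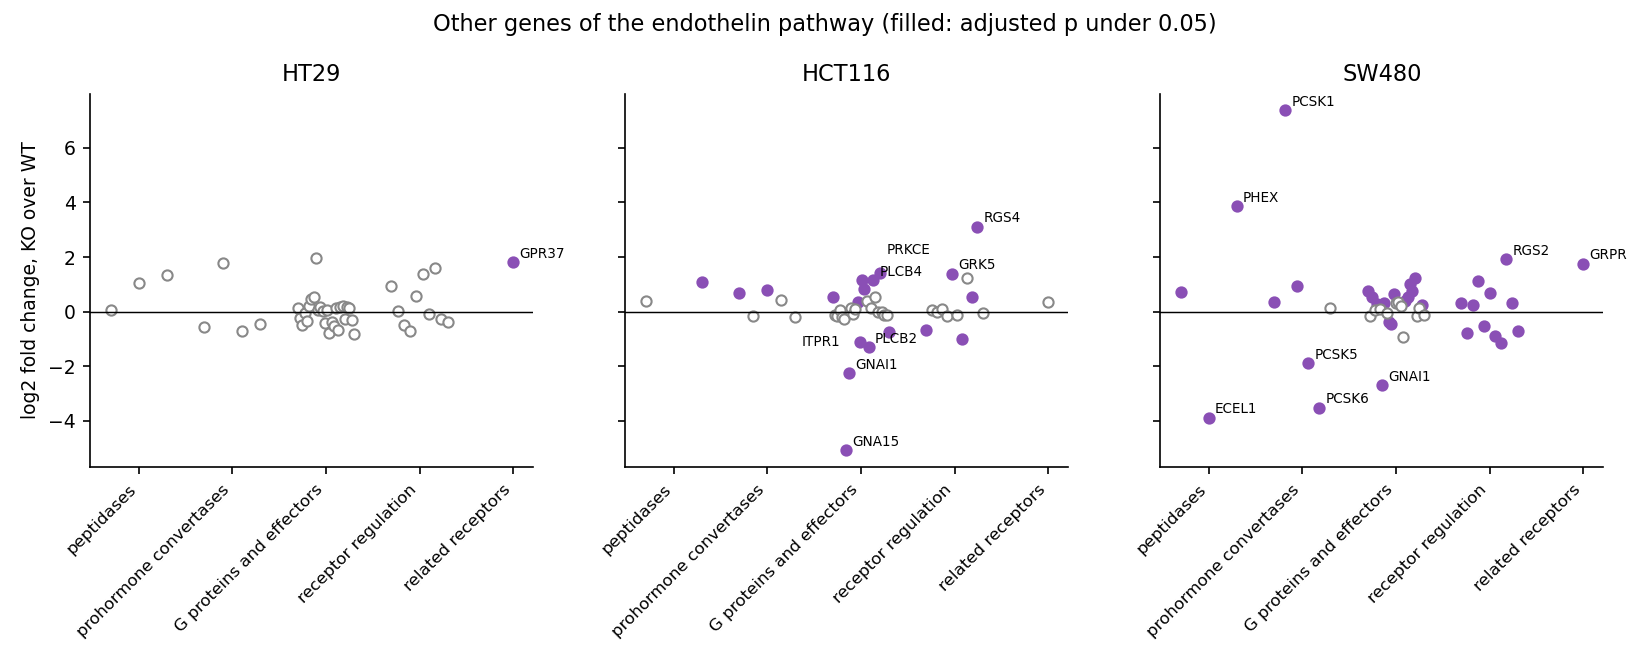
The log2 fold change of KO over WT is plotted for the tested genes of the 59 listed, by group and line, with filled points at an adjusted p under 0.05. SW480 has 34 filled points, HCT116 has 19 and HT29 has 1, which is GPR37 at 1.82. Among them PCSK1, PHEX and ECEL1 in SW480 and RGS4 and GNA15 in HCT116 had to differ once they passed the filter.

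The transcripts whose pattern was most like that of EDN3 were compared over the 24 libraries with Pearson's r of log2(value + 1) among 14686 genes. They were the noncoding RNA ENSG00000250378 with r = 0.993, COL4A2-AS2 with 0.987, PLEK with 0.972, TBXT with 0.969 and MUCL1 with 0.969. PLEK encodes pleckstrin of blood cells, TBXT the T-box factor brachyury and MUCL1 a small mucin-like protein. Their means were 227, 203, 288, 339.7 and 370.7 in SW480 WT and at most 2.62 in any other group, so that these correlations rest on the 4 SW480 WT libraries. For the enzymes the deviations from the mean of the line were compared among 13027 genes over the 24 libraries. ECE1 was most like BMP1 (r = 0.966), MPRIP (0.941) and CLIP4 (0.938), and ECE2 was most like ZMYND19 (0.945), NOL11 (0.934) and PELP1 (0.932). BMP1 encodes a procollagen proteinase, MPRIP a partner of myosin phosphatase, and NOL11 a factor of ribosome biogenesis. The libraries share the size factors of 1 table, and these values are descriptions of likeness with no test.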

How the data were processed

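RNA of 24 libraries was captured with oligo-dT, made into unstranded TruSeq libraries and sequenced. The authors aligned reads to GRCh37 with STAR 2.7.5b, counted them per gene with featureCounts 2.0.1 and deposited, per library, signal values that are counts divided by a DESeq2 size factor. The values of each library were whole multiples of the value of 1 read (100% within 0.01), which recovered the reads. Per-line tables of the authors' own comparisons, with mean signal, log2 fold changes and p-values from DESeq2, were not used. Coordinates and overlaps are from GENCODE 44 lifted to GRCh37.

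A gene was tested where 4 or more of the 8 libraries of its line (4 of 24 between lines) reached 10 normalized counts. The test was limma 3.58.1 with trend and robust estimates, on log2(value + 1) in R 4.3.3. Genotypes, clones of a genotype, changes between lines and WT levels were compared. The alternatives were edgeR 4.0.16 with TMM, DESeq2 1.42.0, TMM rescaling, pseudocounts of 0.1 and 5, filters of at least 1 in 1 library and at least 10 in every library, the round as a block, reads added up per clone (clone sums), clone as a random effect, and each library and clone left out. Tests were tried on simulated reads.

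Libraries of a group are 2 clones in 2 rounds, so p-values mix the spread between clones and that between rounds. Clone comparisons measure that between rounds alone. The main test had no term for the clone and counted the rounds of a clone as independent, so its p-values can be too small. Clone sums take the clone as the unit, and genes given without them rest on the main test. Libraries of the same round deviated together across all clones in HCT116 (r from 0.182 to 0.374 across genes, 6 of 6 pairs over 0.1). In HT29 only some pairs of clones did (r from −0.309 to 0.424, 2 of 6 pairs over 0.1). In SW480 r ran from −0.041 to 0.127, with 1 of 6 pairs over 0.1. Floors cover counting error only. The members, the lists and the tests were chosen with earlier results of these data known. The genes named were the 7 members, CTNNB1, per line up to 4 genes of the pathway list in each direction with an adjusted p under 0.05 and the largest log2 fold changes over 1 in size, and the genes most like EDN3 (5), ECE1 and ECE2 (3 each) by Pearson's r. VWF, RET, FURIN, CD14 and ITGAM were named after their values were seen. The marker lists were epithelial, endothelial, fibroblast, immune, and glial and neural crest, and 1 item of the immune list is not reported here. Python 3.11.15 and matplotlib 3.10.9 were used.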

Additional observations from a re-analysis of the deposited data

Results flagged for a closer look

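EDN3 in SW480 KO 21B was far from the other libraries of its group, at 9.60 normalized counts against 0 in KO 17A, 17B and 21A. EDNRB in HCT116 KO 47A was at 12.8 against 0 in the other HCT116 KO libraries. EDNRA in HCT116 WT 6B was at 43.8 against 83.5 to 91.5 in the other HCT116 WT libraries. These are 3 of 28 groups with at least 1 library over the floor, and chance flags about 1 group in 20. For EDN3 and EDNRB the other libraries of the group were all at 0, so that any value above 0 in 1 library meets this criterion, and the EDN3 values are those by which the genes were chosen.

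The change with genotype differed between lines for ECE1, which was 1.40 higher in SW480 than in HT29 on the log2 scale (adjusted p = 0.00088 in limma). For EDNRB it was 5.57 higher in SW480 than in HT29 and 5.00 higher than in HCT116 in limma, and neither passed in edgeR. EDNRB entered that fit through its SW480 KO libraries and HCT116 KO 47A alone, so these values are a description.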

How the results depend on the processing

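The count of passing members in HT29 was 0 under each of the alternatives. In HCT116 the count of 1 became 2 in edgeR, DESeq2 and limma with TMM rescaling and 0 on clone sums, and ran from 0 to 2 with libraries or clones left out (0 without KO 44 and 2 without KO 47). In SW480 the count of 5, which includes EDNRB although it had to differ, became 3 on clone sums and ran from 4 to 5 with libraries or clones left out, where EDNRB could not be fitted without a KO library. Differences of the KO effect between lines gave 3, of which 2 are EDNRB and had to differ, with 5 at a pseudocount of 5, 1 on clone sums, and 3 to 5 with libraries left out (5 without HT29 KO 28A, KO 28B or WT 11B). With the round as a replicate block, clones of a genotype gave 5 in place of 2 and the pathway list in HT29 gave 0 in place of 1, while the members gave 0, 1 and 5 in HT29, HCT116 and SW480 as without it. The pathway list in HT29 also gave 0 in edgeR and on clone sums, and 6 in DESeq2. Clone sums gave 5 in HCT116 in place of 19 and 18 in SW480 in place of 34. The shares of all tested genes at these alternatives are not given. With libraries left out the list gave 0 to 1 (0 without each HT29 library but KO 38B and WT 11B) in HT29, 13 to 19 in HCT116 and 28 to 32 in SW480. The cause was not tested, except that summing leaves 2 values per group.

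Directions turned where differences were small. In HT29, leaving out libraries or clones gave −0.73 to 1.08 for EDN1, −0.57 to 0.39 for ECE1 and −0.10 to 0.77 for ECE2, and in HCT116 −0.91 to 0.18 for EDNRA. Between SW480 and HT29 WT it gave −0.36 to 0.011 for ECE1 and −0.088 to 0.20 for ECE2, for which edgeR gave −0.020. For the difference of the KO effect it gave −0.22 to 0.86 for EDN1 between HCT116 and HT29 and −0.54 to 0.030 for EDN2 between SW480 and HCT116, where a pseudocount of 0.1 gave 0.72. In edgeR the SW480 KO clones differed in EDN2 by −0.0040 and the WT clones in EDN1 by 0.0075. EDN3 between SW480 genotypes was −10.94 at a pseudocount of 0.1 and −6.57 at 5.

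Of 1316 values recomputed for single genes, 1250 were counted as unchanged. This count does not measure robustness, because some of these values could not change. EDNRB had no read in SW480 WT and HT29 WT libraries, so its difference between them was the same in every alternative. Leaving out a library of another line cannot move the log2 fold change of a comparison. EDN3 had no test between SW480 genotypes or between SW480 and the other lines, and so no call to keep. Genes at the floor limit what can be seen: in HT29 and HCT116, EDN2 and EDN3 had few or no reads in any library, and EDNRB was over the floor in HCT116 KO 47A alone.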

Other observations

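Fibroblast markers summed to 109 to 1212 in HT29 KO libraries and 14.2 to 26.9 in HT29 WT libraries. They summed to 327 to 405 and 289 to 443 in HCT116, and to 244 to 294 and 215 to 565 in SW480. Of the 7 fibroblast markers, 5 were at the floor in every HT29 KO library, so that the sum there rests on the other 2. In HT29 WT 5 were also at the floor in every library.

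The 6 reported immune markers summed to 166 to 393 in HT29 KO and 21.3 to 327 in HT29 WT libraries. Their sum was 11.3 to 39.6 in HCT116 KO and 14.3 to 25.1 in HCT116 WT libraries. Of the 6, 4 were at the floor in every library of HT29 KO, HT29 WT and HCT116 WT, and 1 in every HCT116 KO library.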
